A study of Homo sapiens with 16 samples.

Results

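The comparison described here is of interphase RNA with aqueous RNA from stressed HEK293 cells, separated by SERIPH. SERIPH is an extraction in which RNA is taken first from the aqueous phase of a phenol-based lysate (1st step) and then, after washing and heating, from the remaining interphase (2nd step). The members were chosen by their labels alone and were 4 of the 16 libraries of the series, with 2 biological replicates of each fraction. HEK293 is a line derived from human embryonic kidney, and the sample titles name no genetic change. The stressed cells had been kept for 9 h in medium with 200 mM sorbitol, which draws water out of cells, and 100 μg/mL cycloheximide, which blocks translation. The libraries used beside them were the same fractions of untreated control cells and the conventional and hiAGPC preparations of stressed cells. Conventional preparations correspond in kind to the 1st step, whereas hiAGPC adds heating and recovers readily extractable and semi-extractable RNA in 1 pool. The files hold values for readthrough regions and no values for genes, so the cell label was not checked against marker genes.

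RNA polymerase II normally stops a short way past the point where the transcript is cut and polyadenylated. Under osmotic stress, heat shock and some viral infections, cleavage and termination fail at many genes and the polymerase runs on, which gives downstream-of-gene transcripts (DoGs) that begin at the gene end and may reach past neighbouring genes. DoGs stay in the nucleus, and many are semi-extractable, meaning that standard phenol extraction leaves part of them in the interphase with protein. The comparison between the steps therefore asks which DoGs were found in the interphase RNA and which in the aqueous RNA of the same kind of cells.

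The 1st-step libraries listed DoGs for 343 and 400 genes, and the 2nd-step libraries for 2387 and 2449 genes. The means were 371.5 ± 40.3 and 2418 ± 43.8 (SD, n = 2), a ratio of 6.51, and both 2nd-step libraries exceeded both 1st-step libraries. After overlapping regions on the same strand had been merged, the listed DoGs covered 5.83 and 7.51 Mb in the 1st-step libraries and 165.6 and 190.4 Mb in the 2nd-step libraries. The regions averaged 17.0 and 18.8 kb in the 1st step and 69.5 and 77.8 kb in the 2nd step. A two-sided exact permutation test over the 4 libraries gave p = 0.333 for the number of genes and for the covered length, the smallest value that 2 libraries against 2 allow. Both libraries of a fraction resembled each other, since 279 of the 464 genes listed in either 1st-step library were listed in both (60.1%), as were 2031 of 2805 in the 2nd step (72.4%).

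The level of each DoG was given as FPKM, a read density corrected for region length and library size, for 3139 DoGs. All libraries were measured over the same region of a DoG, nearly always the longest one listed in any library. For most genes that region came from a 2nd-step library. Where the 1st step listed a shorter region, its FPKM also averaged over bases outside that region, so the changes below include differences in length. For RBM4 the region was 170 kb, and the 1st-step libraries listed 10 and 30 kb. The median FPKM was 0.14 in both 1st-step libraries and 0.86 and 0.84 in the 2nd-step libraries. An FPKM of 1 or more was reached by 164 and 155 DoGs in the 1st step and by 1222 and 1189 in the 2nd step. FPKM is relative to the other RNA of its library, so a higher value may stand for more DoG RNA or for less of other RNA, and these cannot be told apart here. In a limma fit on log2(FPKM + 0.1), a scale that understates the changes of low values, the 2nd step was higher at 2489 DoGs (79.3% of those tested) and lower at 93 (2.96%). A call required a Benjamini-Hochberg adjusted p under 0.05 and a log2 fold change of 1 or more in either direction. The median log2 fold change over all DoGs was 1.99. Most of the DoGs with FPKM entered through the 2nd step, since 2634 of the 3139 (83.9%) were listed by at least 1 of its libraries, so the median and the calls describe DoGs chosen in part for a high 2nd step. Among the 445 DoGs listed by none of the 4 libraries, the median was 0.52, with 28.3% called higher and 7.64% lower. With every library's values taken relative to that library's median, referred to as centring, the median shift is removed and 211 DoGs were called higher (6.72%) and 639 lower (20.4%). A pseudocount of 1 in the log, which damps low values further, left 575 higher and 30 lower. Changes are given below as fitted, with the distance from the median of all DoGs where that changes the reading.

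**Figure D1:**
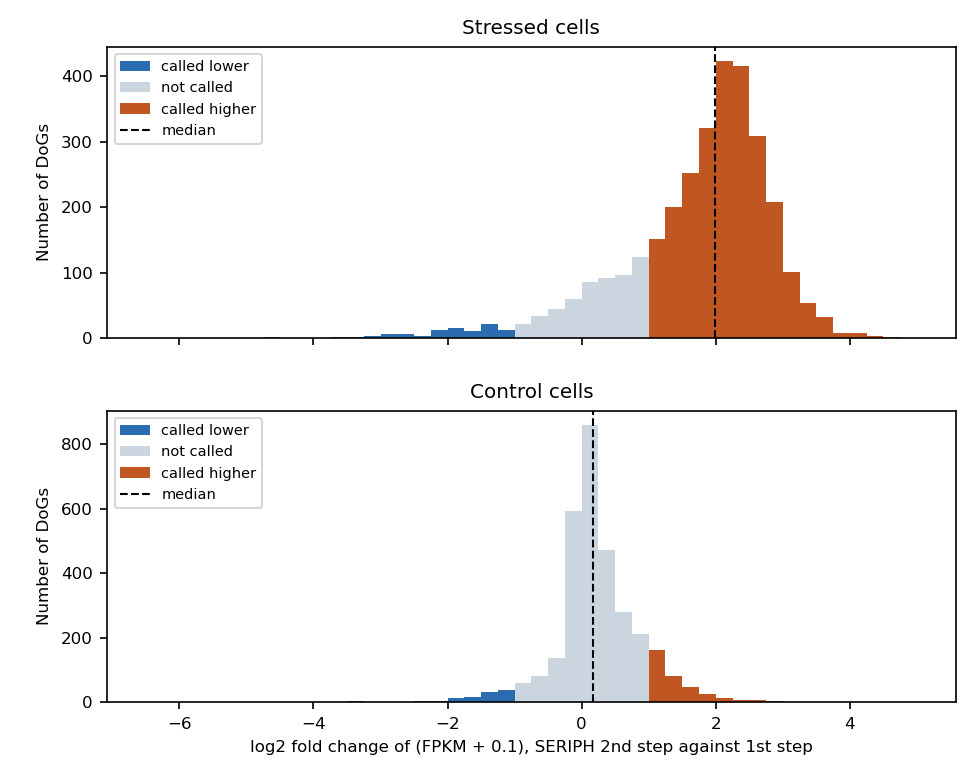
Histograms of the log2 fold change of each of 3139 DoGs between the SERIPH 2nd and 1st step, in stressed cells above and in control cells below, in bins of 0.25. The x axis is the change on the log2(FPKM + 0.1) scale, the y axis the number of DoGs, the colours the calls and the dashed line the median, which lay at 1.99 in stressed and 0.17 in control cells.

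The largest increases were found at 10 DoGs with log2 fold changes between 4.08 and 4.59. USP11, a deubiquitinase gene on the X chromosome (chrX:47232866-47248328, GRCh38, plus strand), had FPKM of 0.14 and 0.14 in the 1st step and 5.82 and 5.58 in the 2nd step. Its mean was 40.7 times as high in the 2nd step, with a log2 fold change of 4.59 ± 0.08 (SE) and an adjusted p of 9.8e-13. The USP11 DoG was listed at 311.2 kb in both 2nd-step libraries and in neither 1st-step library. TINCR, a gene of epidermal differentiation on chromosome 19, had 0.08 in both 1st-step libraries and 4.05 and 3.92 in the 2nd step, and its region was 275 kb long in both. RAB3A, which encodes a small GTPase of vesicle release, had 0.12 and 0.12 against 4.86 and 4.64. For USP9X, another deubiquitinase gene of the X chromosome, the values were 0.09 and 0.11 against 4.04 and 3.89. In these 4 DoGs the values of the fractions did not overlap, which was also so for 88.8% of all DoGs with the 2nd step higher and 6.34% with the 1st step higher.

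The other 6 had the same form. RBM4, a splicing regulator gene, had the highest level among the 10, with 0.36 and 0.34 in the 1st step and 8.33 and 8.16 in the 2nd step, and it was the only one of the 10 that the 1st-step libraries also listed, at 10 and 30 kb against 170 kb in both 2nd-step libraries. PYCARD-AS1, the antisense transcript of an inflammasome adaptor gene, had 0.34 and 0.31 against 7.57 and 7.14. Both 2nd-step libraries listed the PYCARD-AS1 DoG at 55 kb. Its longest region in any library of the series was 323.1 kb and reaches 10 genes on the same strand. RCN3, a calcium-binding protein gene of the endoplasmic reticulum, had 0.27 and 0.21 against 6.38 and 6.17. GCNA, a germ cell nuclear protein gene, had 0.11 and 0.11 against 4.05 and 3.60. LGALS4, a galectin gene, had 0.07 and 0.13 against 4.26 and 3.46 over a region of only 15 kb. NOTCH3, a receptor gene, had 0.02 and 0.07 against 2.21 and 2.42, and 1 of the 2nd-step libraries listed it. Of the 10, 5 lie on chromosome 19 and 3 on the X chromosome, where the 90 DoGs as a whole had a median of 1.75 and 65.6% were called higher. The regions of 8 of them reach another annotated gene on the same strand (PTPRS for TINCR, PRRG2 for RCN3), and reads of such a gene enter the FPKM of the DoG. After centring all 10 were still called higher, against 6.72% of all DoGs. Centring lowers every change by the same shift, so the largest changes pass it by construction.

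Of the 10 largest decreases, 1 was as large as these increases and the other 9 had log2 fold changes from -3.58 to -2.80. NEK6, which encodes a mitotic kinase (chr9:124257606-124353307, plus strand), had 5.41 and 5.09 in the 1st step and 0.18 and 0.06 in the 2nd step. Its mean was 43.8 times as high in the 1st step, with a log2 fold change of -4.66 ± 0.19 and an adjusted p of 1.3e-10. Both 1st-step libraries listed the NEK6 DoG at 10 kb, and neither 2nd-step library did. SERINC1, a membrane protein gene, had 1.91 and 2.06 against 0.11 and 0.10 and was likewise listed at 10 kb in the 1st step only. PTGES3, which encodes the HSP90 co-chaperone p23, had the highest FPKM of any DoG in the 1st step, with 26.44 and 22.14, against 2.02 and 1.86 in the 2nd step. Its region reaches ATP5F1B, a gene of mitochondrial ATP synthase on the same strand, and only the 2nd-step libraries listed it as a DoG, at 15 and 25 kb. TOP3A, a topoisomerase gene, had 8.70 and 8.16 against 1.03 and 0.79, and its region reaches FLII. In each of these the 1st-step values were the higher ones and the groups did not overlap. That was so for all 93 DoGs called lower and for 6.34% of all DoGs.

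The remaining DoGs among the 10 lowest were those of ALG10, HSD17B12, PGM2, TET1, GUF1 and ZFP14, with log2 fold changes from -3.20 to -2.80. TET1, the gene of an enzyme that oxidises 5-methylcytosine, had 1.98 and 3.20 in the 1st step against 0.20 and 0.30. HSD17B12, a gene of fatty acid elongation, had 1.65 and 1.67 against 0.13 and 0.10. ZFP14, a zinc finger gene, had 2.08 and 1.71 against 0.19 and 0.18. GUF1, a gene of mitochondrial translation, had 1.26 and 1.40 against 0.04 and 0.16 and was listed by none of the 4 libraries. After centring all 10 were called lower, against 20.4% of all DoGs. This too follows by construction, since centring makes every decrease larger.

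**Figure D2:**
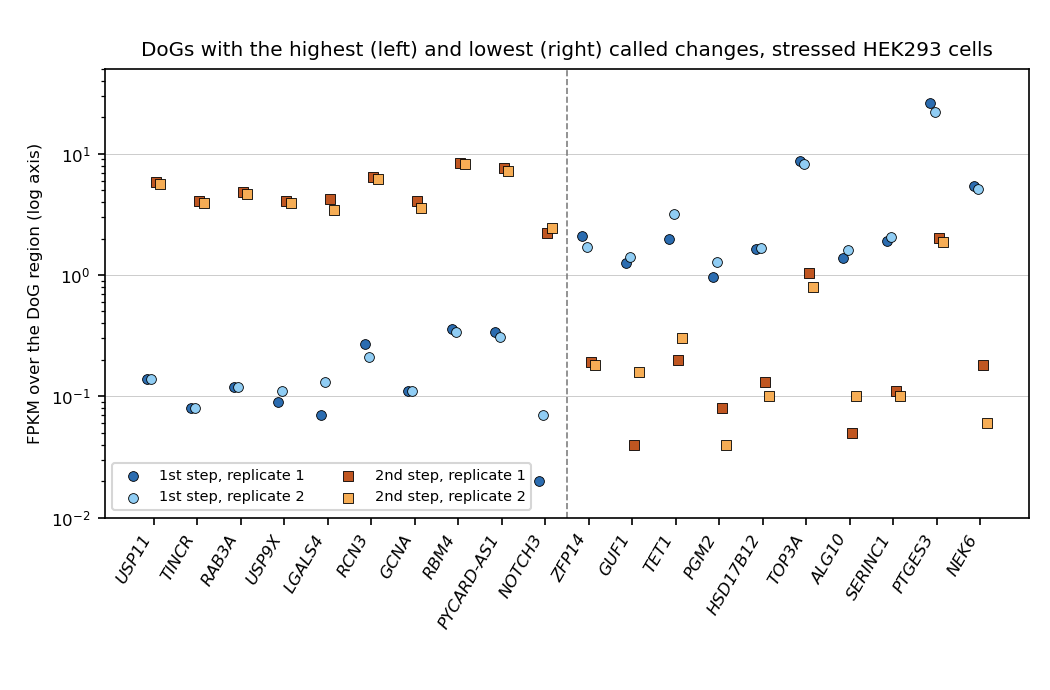
FPKM of the 10 highest and 10 lowest called DoGs by log2 fold change, on a log axis, with 1 point for each of the 4 stressed libraries. Circles are the 1st step and squares the 2nd step. In every one of the 20 DoGs both squares lie on the same side of both circles, as in all DoGs called.

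A DoG region begins at the annotated gene end, and the cleavage site itself was not measured. The last 30 genomic bases before the listed region are given for the 3 highest and 3 lowest DoGs. They are written on the strand of the gene, from the GRCh38 reference, and capitals mark a polyadenylation hexamer (AATAAA or ATTAAA) where the window holds one.
USP11 (chrX:47248299-47248328, plus strand): tgtatatataaagcaccagtctgctcccca
TINCR (chr19:5558167-5558196, minus strand): ctgAATAAAagattacatgtttgaaaacaa
RAB3A (chr19:18196752-18196781, minus strand): accgggtcctgcccaccctggttttgatca
NEK6 (chr9:124353278-124353307, plus strand): ctcaagggagtccactctgacttctgacag
PTGES3 (chr12:56663338-56663367, minus strand): aatgtgttgtcctcctaaatctttgaactt
SERINC1 (chr6:122443348-122443377, minus strand): acctctaAATAAAtgaattcagagaaagtg
One of the 3 highest and 1 of the 3 lowest held a hexamer in these letters, with its first base 27 bases from the end in TINCR and 23 in SERINC1. Over the last 50 bases, AATAAA or ATTAAA was found on the gene's strand before 67.0% of the regions called higher (1664 of 2485 with a listed region), 59.1% of those called lower (55 of 93), 61.2% of those not called and 65.7% of all 3135 regions.

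Among all 93 DoGs called lower, the median of the mean FPKM was 1.13 in the 1st step and 0.21 in the 2nd step, against 0.13 and 0.92 for the DoGs called higher. The regions of the lower DoGs were short, since 48 of the 93 (51.6%) had the minimum length of 10 kb, against 16.9% of the DoGs called higher. Both 1st-step libraries listed 33 of the 93, and both 2nd-step libraries 14. Of those 14, 13 reach another gene on the same strand. The share among all DoGs listed by both 2nd-step libraries was not counted. Over all 93, 46 regions (49.5%) reach such a gene, against 41.4% of the DoGs called higher. A fit limited to DoGs whose region reaches no such gene called 1456 higher and 47 lower. Reads of the spliced neighbour and of the DoG cannot be told apart in these values, and the part of the neighbours in the decrease was not tested.

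The most abundant DoGs differed between the fractions. In the 2nd step the 5 highest mean FPKM belonged to RCC1, ZNF207, the gene with the identifier ENSG00000170846, YBX1 and SRSF1. RCC1, the gene of the nucleotide exchange factor of the nuclear GTPase Ran, had 13.17 and 12.31 in the 2nd step against 1.28 and 1.27, a 9.99-fold difference of the means. YBX1, which encodes an RNA-binding protein, had 8.56 and 8.81 against 0.88 and 0.78, and SRSF1, a splicing factor gene, 8.56 and 8.72 against 0.90 and 0.87. ZNF207, a zinc finger gene of the mitotic spindle, was already high in the 1st step, with 2.81 and 2.71 against 11.71 and 11.51, and its change of 2.03 lay at the median of all DoGs and was not called after centring. In the 1st step the 5 highest belonged to PTGES3, TOP3A, NOTCH1, DNMT1 and ALYREF. In each fraction the regions of all 5 reach another gene on the same strand, against 41.4% of all regions. NOTCH1 had 8.30 and 7.57 against 1.64 and 1.29, and ALYREF, an mRNA export factor gene, 5.37 and 5.32 against 1.43 and 1.17. For DNMT1, the maintenance DNA methyltransferase gene, the 1st-step values of 5.57 and 5.30 stood against 5.13 and 4.40, a log2 fold change of -0.19 ± 0.11 that was not called as fitted.

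The lists of DoG-producing genes overlapped in 1 direction. Genes listed in both replicates numbered 279 in the 1st step and 2031 in the 2nd step, and 213 were in both sets, which is 76.3% of the 1st-step set and 10.5% of the 2nd-step set. Both 2nd-step libraries and neither 1st-step library listed 1689 genes. For the 1672 of them with FPKM, the median was 0.14 in the 1st step and 1.01 in the 2nd step. Of these, 1566 (93.7%) were called higher and 8 (0.478%) lower, against 79.3% and 2.96% of all DoGs, and after centring 169 were higher and 104 lower. Since listing and FPKM rest on the same reads, these counts are a description. ARID1B, a gene of the SWI/SNF chromatin remodelling complex, had FPKM of 0.13 and 0.10 in the 1st step and 0.95 and 1.01 in the 2nd step, and its DoG was listed at 70 and 105 kb in the 2nd step only.

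The reverse set held 50 genes, listed by both 1st-step and neither 2nd-step library. At 28 of these the DoG had the minimum length of 10 kb in both 1st-step libraries, and 45 of the 50 were also listed in both conventional libraries of stressed cells. FPKM was given for 31 of them, with a median of 1.22 in the 1st step and 0.28 in the 2nd step, and 27 (87.1%) were called lower and none higher, against 2.96% and 79.3% of all DoGs. These counts too restate the listing, which rests on the same reads. Those with the highest 1st-step FPKM were NEK6, then HUS1 and THOC5. HUS1, the gene of a DNA damage clamp subunit, had 3.18 and 3.69 against 0.36 and 0.46, and THOC5, an mRNA export complex gene, 3.07 and 3.48 against 0.48 and 0.38. PBDC1 had 2.20 and 2.55 against 0.21 and 0.34, and BCL7A, another SWI/SNF gene, had 2.37 and 2.11 against 0.43 and 0.40. The smallest difference among the 10 highest was that of NDUFAF3, an assembly factor gene of respiratory complex I, with 1.84 and 1.75 against 0.75 and 0.86.

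Listed regions were also longer in the 2nd step where both fractions listed them. A region is extended by read coverage in windows of 5 kb, so its length depends on read density. At the 212 shared genes with FPKM the median was 0.51 in the 1st step and 2.2 in the 2nd step. Length and level therefore rest on the same reads and are not separate results. Over the 213 genes listed in all 4 libraries, the median length was 15 kb in the 1st step and 77.5 kb in the 2nd step, and the median ratio was 4.5, with quartiles of 2.0 and 10.0. At 180 genes (84.5%) both 2nd-step regions were longer than both 1st-step regions, and at none were both shorter. The ratio was 10 or more at 54 genes. HNRNPD, which encodes an AU-rich element binding protein, had regions of 15 and 20 kb in the 1st step and 855 and 905 kb in the 2nd step. SYNCRIP, another RNA-binding protein gene, had 10 and 20 kb against 715 and 800 kb, and ZIC2, a developmental transcription factor gene, 10 kb in both against 670 and 713.7 kb. TRA2B, a splicing factor gene, had 10 and 25 kb against 743.1 and 760 kb. The other end was DNAJA1, an HSP40 chaperone gene, the only one that was shorter in the 2nd step, with 15 and 10 kb against 10 kb in both, and its FPKM of 0.91 and 1.05 against 0.82 and 0.85 was not called. ZRANB1 and SMC1A had 15 kb in all 4 libraries. The median ratio over the 47 genes whose region reaches no other gene on the same strand was 2.0, but a region that is long in the 2nd step is more likely to reach a neighbour, so these 47 are chosen for short 2nd-step regions.

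**Figure D3:**
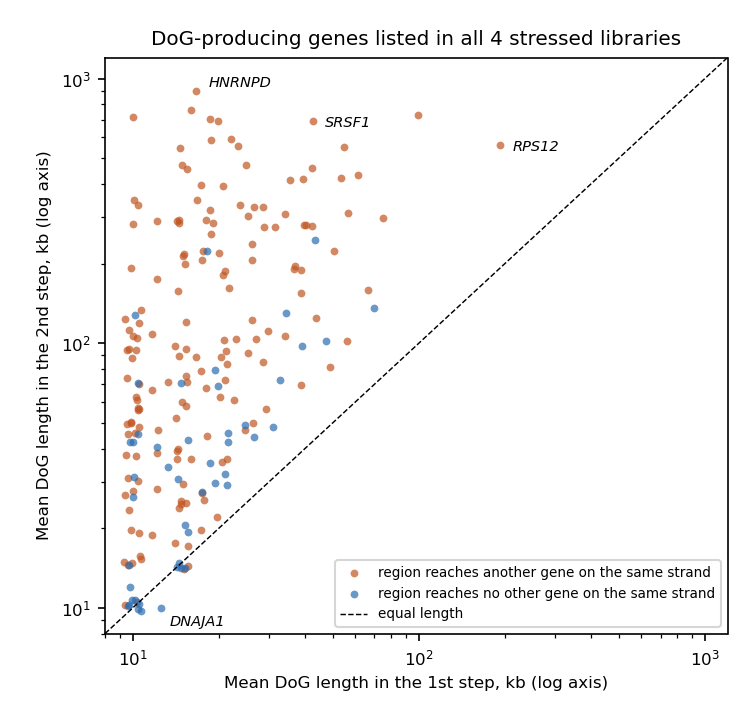
Mean DoG length of the 213 genes listed in all 4 stressed libraries, with the 1st step on the x axis and the 2nd step on the y axis, both in kb on log axes. Points are genes, slightly scattered because many genes share a length, the colours show whether the region reaches another gene on the same strand, and nearly all points lie above the dashed line of equal length.

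The longest regions of the 2nd step were those of RPS29 (915 and 985 kb), HNRNPD, MORF4L1 (840.2 kb in both), HAPSTR1 (760 kb in both) and SYNCRIP. RPS29, a ribosomal protein gene, was listed in neither 1st-step library and had FPKM of 0.33 and 0.35 there against 3.40 and 3.50. The longest region of the 1st step was that of another ribosomal protein gene, RPS12, at 155 and 205 kb. The 2nd-step libraries put it at 205 and 915 kb, so 1 of them only equalled the longer 1st-step region. RRM2, which encodes a ribonucleotide reductase subunit, was listed at 10 kb in both 1st-step libraries and at 236.1 and 415 kb in the 2nd step. Its FPKM was 0.24 and 0.22 against 2.84 and 2.81. Regions of 100 kb or more numbered 2 in each 1st-step library and 474 and 558 in the 2nd-step libraries. In the 1st step 2.92% and 3.25% of the regions reached an annotated protein-coding gene on the same strand, and in the 2nd step 21.2% and 21.6%, which touched 734 and 767 such genes.

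Members of 20 gene lists were counted next, for which the background is the 79.3% of all DoGs called higher and the 2.96% called lower, or 6.72% and 20.4% after centring. The lists are defined by gene symbols and were chosen with earlier results of these data known. Same-strand neighbours are named below for some members only. Such a gene is reached by 41.4% of all regions called higher and 49.5% of those called lower. Splicing factor and RNA helicase genes stood above the median of all DoGs by 0.30, with a median log2 fold change of 2.30. Of their 51 DoGs, 48 were called higher and none lower as fitted, and 10 higher and 3 lower after centring. DDX3X, an RNA helicase gene, had the largest change, with FPKM of 0.12 and 0.12 in the 1st step and 2.54 and 2.49 in the 2nd step, a log2 fold change of 3.57 ± 0.06 and an adjusted p of 9.8e-13. LSM14A, a P-body protein gene whose region reaches GPI, had 3.43 and 3.32 against 1.88 and 1.88 and was not called as fitted. All 6 DoGs of paraspeckle protein genes were called higher, 1 of them also after centring, with a median of 2.41. SFPQ, a core protein of paraspeckles, had 0.47 and 0.56 against 5.21 and 5.33, and RBMX, the lowest of the 6, 0.12 and 0.17 against 1.03 and 1.05. The genes of 3′ end processing and termination, which carry out the step that DoGs escape, had 10 of 11 called higher as fitted and none higher and 1 lower after centring. Among them INTS6, an Integrator subunit gene, had 0.52 and 0.56 against 3.71 and 3.82.

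Genes of translation lay near the median of all DoGs. Among 43 cytosolic ribosomal protein genes 34 were called higher and none lower as fitted, and 8 higher and 9 lower after centring, with a median of 2.06. They were listed often in both fractions, 39 of the 43 by both 2nd-step and 17 by both 1st-step libraries. RPL3 had the largest change, with 0.22 and 0.20 against 3.35 and 3.11, and RPL36 the highest level, with 0.64 and 0.57 against 6.15 and 5.97. Of 31 translation factor genes 23 were called higher and none lower as fitted, and 2 higher and 7 lower after centring. EIF4E, the gene of the cap-binding protein, had 0.25 and 0.24 against 3.58 and 3.63, whereas EIF3L had 3.60 and 3.11 against 1.75 and 1.55, a change of -0.98 that stayed just under the fold required for a call.

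Several lists lay below the median of all DoGs. The 20 chaperone genes had the lowest list median, 1.19, with 12 called higher and 1 lower as fitted, and none higher and 8 lower after centring. DNAJC7, whose region reaches the lipid synthesis gene ACLY, had 4.87 and 4.96 in the 1st step against 1.88 and 1.68. The 27 histone genes had a median of 1.33, with 16 called higher and none lower as fitted, and 1 higher and 10 lower after centring. Replication-dependent histone transcripts end in a stem loop in place of a poly(A) tail, and the authors kept only uniquely mapped reads, so reads that match several of the clustered, near-identical copies are missing and the values are uncertain. H3-3A, which encodes the replication-independent variant H3.3, had 0.19 and 0.16 against 2.28 and 2.26, and H2AC12 had 1.61 and 1.55 against 1.03 and 0.71 and was not called as fitted. Mitochondrial genes had 31 of 46 called higher and 4 lower as fitted, 2 higher and 14 lower after centring, and a median of 1.49. TOMM20, an import receptor gene, had 0.18 and 0.16 against 2.60 and 2.73, and MRPL3, a mitochondrial ribosomal protein gene, 0.88 and 0.82 against 0.10 and 0.11. RNA polymerase II and general transcription factor genes had 20 of 27 called higher and 1 lower as fitted, 1 higher and 7 lower after centring. The lower one was GTF2H1, a TFIIH subunit gene whose region reaches LDHA, with 5.53 and 3.74 against 1.01 and 0.85. Zinc finger genes had 54 of 77 called higher and 5 lower as fitted, and 3 higher and 22 lower after centring.

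**Figure D4:**
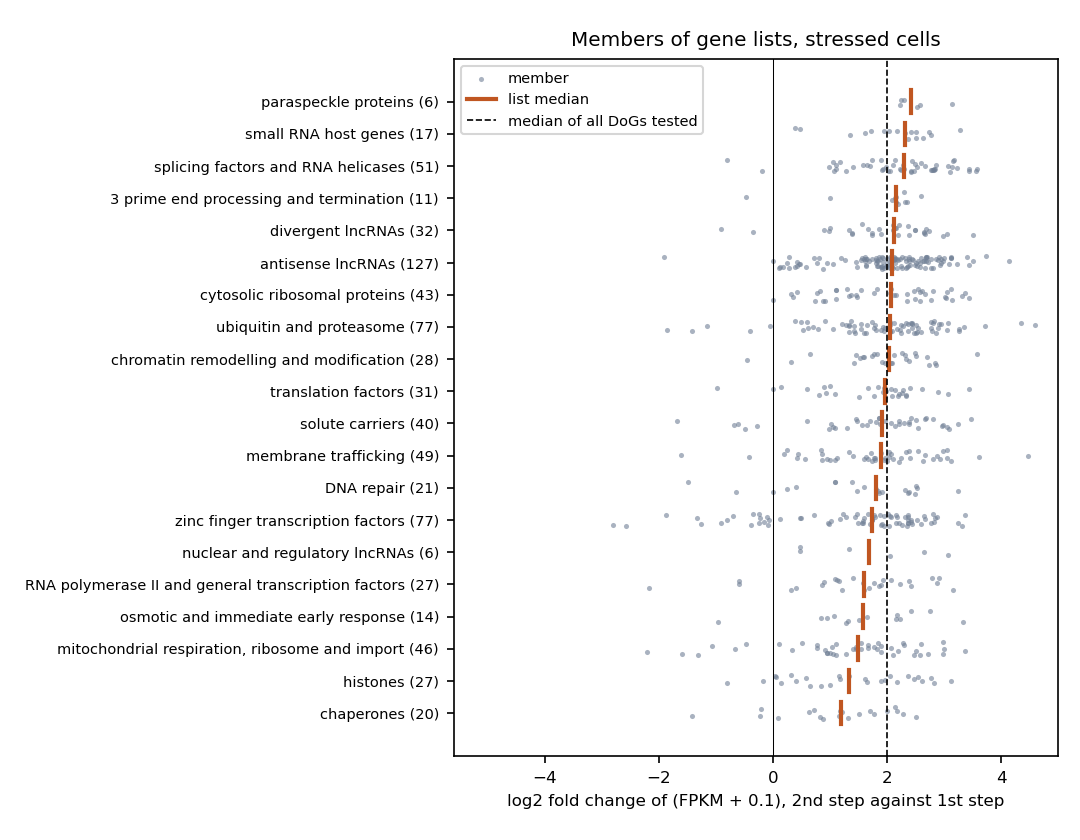
The log2 fold change of (FPKM + 0.1) between the 2nd and 1st step on the x axis for each member of 20 gene lists, with the number of members in brackets. Grey points are DoGs, the orange bar is the list median and the dashed line the median of all 3139 DoGs at 1.99, and list medians run from 1.19 for chaperones to 2.41 for paraspeckle proteins.

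The stress-response genes were few. Of 14 genes of the osmotic and immediate early response 11 were called higher and none lower as fitted, and 1 higher and 3 lower after centring. EGR1, an immediate early transcription factor gene, had 0.13 and 0.15 against 2.37 and 2.23. Its region was listed at 10 kb in both 1st-step libraries and at 260 and 140 kb in the 2nd step. DUSP1, a phosphatase gene that restrains MAP kinases, had 1.33 and 1.53 against 0.77 and 0.60, which was not called as fitted. Ubiquitin and proteasome genes included USP11 and USP9X and had 64 of 77 called higher and 3 lower as fitted, and 8 higher and 13 lower after centring. The ubiquitin ligase gene RNF114 was the lowest of them, with 3.72 and 3.53 against 0.91 and 0.93. Its region reaches SNAI1, and those of USP11 and USP9X also reach other genes on the same strand. Chromatin genes had 25 of 28 called higher and none lower as fitted, and 1 higher and 3 lower after centring. KDM4B, a histone demethylase gene, led them with 0.12 and 0.12 against 2.56 and 2.5 over a region of 20 kb. Solute carrier genes (33 of 40 higher, 1 lower), membrane trafficking genes (37 of 49 higher, 1 lower) and DNA repair genes (16 of 21 higher, 1 lower) had medians of 1.91, 1.89 and 1.80, and after centring 4, 5 and 1 of their members were called higher and 7, 11 and 5 lower.

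The lists of long noncoding RNA genes with over 30 members lay close to the median of all DoGs. Antisense transcripts had 108 of 127 called higher and 1 lower as fitted, and 11 higher and 19 lower after centring, with a median of 2.08, and divergent transcripts 28 of 32 higher and none lower as fitted, and 2 higher and 4 lower after centring. MVP-DT had 0.22 and 0.20 against 3.52 and 3.31. Hosts of small RNAs had 15 of 17 called higher as fitted, and 1 higher and 2 lower after centring, with SNHG16 at 0.29 and 0.28 against 3.79 and 3.47. NORAD, a cytoplasmic RNA that binds Pumilio proteins, had 0.24 and 0.20 against 2.63 and 2.5, and the host gene GAS5 0.42 and 0.47 against 3.26 and 3.34. In the list of nuclear and regulatory RNAs that holds them, 4 of 6 were called higher and none lower as fitted, and 1 higher and 2 lower after centring. The libraries were strand-specific, per the study's methods.

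The change was related to the length of the region. DoGs whose region for FPKM was 15 kb or less had a median log2 fold change of 1.55, and the median rose over the length classes to 1.86, 2.07, 2.29 and, above 120 kb, 2.51. In the shortest class 66.1% of 1079 DoGs were called higher and 67 lower, and in the longest class 93.4% of 482 were called higher and none lower. Across 3139 DoGs Spearman's rho between length and change was 0.42. This is a description across DoGs, and since the region used for FPKM was nearly always the longest one listed in any library, which for most genes came from a 2nd-step library, length and change share their source. The GC content of the first 10 kb past the gene end was weakly related to the change (rho = 0.14, 3135 DoGs), with a median change of 1.73 among the 785 DoGs of lowest GC and 2.08 among the 784 of highest GC. Chromosomes 17 and 19 had the highest medians, 2.22 and 2.17, and a log2 fold change of 3 or more at 14.8% of 244 and 15.1% of 185 DoGs. Gene length, with medians of 32.5 kb for higher and 28.8 kb for lower calls, and exon number, with medians of 10 for both, differed little.

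In the same fractions of control cells fewer DoGs were called and the median change was smaller. The DoGs with FPKM were mostly listed in stressed 2nd-step libraries, and at 1463 of the 3139 (46.6%) the mean FPKM in control cells was under 0.1 in both steps, where the log2(FPKM + 0.1) scale allows little change. The choice of DoGs therefore favours a larger change under stress. In control cells the 2nd step was higher at 343 DoGs (10.9%) and lower at 103 (3.28%), and the median change was 0.17. The difference between the changes under stress and in control cells was tested in the same limma fit, and it was positive at 2288 DoGs (72.9%) and negative at 132 (4.21%), with a median of 1.76. After centring, 291 were positive (9.27%) and 703 negative (22.4%). A larger change under stress was found at 2205 of the 2489 DoGs called higher in stressed cells. These were chosen by the same stressed values that enter the difference, so that count is in part built in. Of the 93 DoGs called lower, 32 were also called lower in control cells. PTGES3 was one with no detected difference between conditions, with 17.29 and 12.78 in the 1st step and 1.24 and 1.47 in the 2nd step of control cells and a difference of -0.21 ± 0.18 (adjusted p = 0.28 in limma). TMEM38B, an ion channel gene, had FPKM of 0.01 and 0.05 against 0.36 and 0.41 in stressed and 0.23 and 0.24 against 0.93 and 1.03 in control cells, a difference of 0.23 ± 0.18 (adjusted p = 0.24 in limma).

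A pair of preparations that shares no library with the SERIPH steps gave a similar order of DoGs. The authors made these preparations in parallel from the same samples, so the cells are not independent. Between hiAGPC and conventional libraries of stressed cells, 2159 DoGs (68.8%) were called higher in hiAGPC and 15 (0.478%) lower, and the median change was 1.40. Of these 2159, 2154 (99.8%) were also called higher in the 2nd step, and they made up 86.5% of the DoGs called higher there. All 15 lower DoGs were among the 93. Across the 3139 DoGs the changes had a Pearson correlation of 0.95, given as a description of DoGs that share regions and gene properties. All 93 DoGs called lower in the 2nd step had a negative change in hiAGPC, with a median of -0.77. The difference between both changes was called positive at 182 DoGs (5.80%) and negative at 48 (1.53%), with a median of 0.54, and positive at 7 (0.223%) and negative at 112 (3.57%) after centring. Leaving out 1 library moved the number of positive calls most for replicate 2 of the 1st step, to 337. The NEK6 DoG, whose FPKM was 1.57 and 1.67 in hiAGPC and whose change there was -1.21, differed by -3.45, and SERINC1 by -2.42. At the other end the difference was 1.35 for LGALS4, 1.12 for TINCR and 1.05 for RAB3A. The SERIPH 1st step and the conventional preparation of stressed cells, both aqueous RNA, had 0 DoGs called different (0.0%) in limma, with 933 at an unadjusted p under 0.05 and 198 at an adjusted p under 0.05 with a smaller fold.

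**Figure D5:**
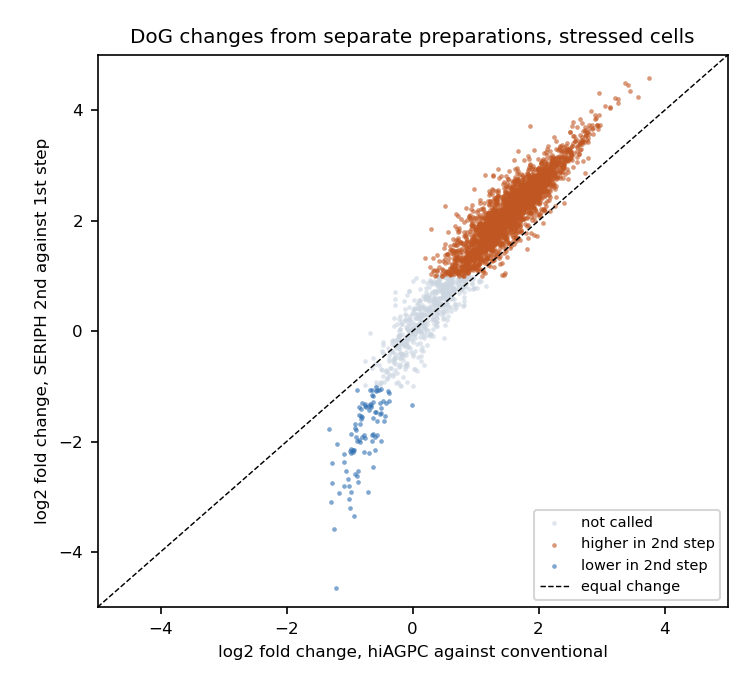
The log2 fold change of each of 3139 DoGs between hiAGPC and conventional RNA on the x axis and between the SERIPH 2nd and 1st step on the y axis, both in stressed cells on the log2(FPKM + 0.1) scale. Colours show the call for the SERIPH steps, and most DoGs called higher lie above and those called lower below the dashed line of equal change.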

How the data were processed

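The authors trimmed reads with fastp 0.25.0, removed ribosomal reads with Bowtie2 2.5.4, mapped what remained with STAR 2.7.11b on GRCh38, kept uniquely mapped reads and called DoGs per library with ARTDeco on GENCODE v49 genes, in windows of 5 kb over at least 10 kb past the gene end with a minimum coverage of 0.5. The deposited FPKM of 3139 DoGs, rounded by the authors to 0.01, refer to 1 region per gene. The reads used for scaling are not given in the sources used here, and the depth is unknown beyond a nominal 20 to 60 M read pairs, so no counting error is given and only the SD between replicates. The authors made the libraries from 100 to 500 ng of 1st-step and 5 to 50 ng of 2nd-step RNA, so RNA input and fraction cannot be told apart. The authors' own gene-level comparisons used DESeq2 and were not used here.

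FPKM was modelled as log2(FPKM + 0.1) with limma 3.58.1 in R 4.3.3, and other steps used Python 3.11.15 (scipy 1.17.1, pandas 2.3.3, numpy 2.4.6, matplotlib 3.10.9). The model had 8 group means over 16 libraries, an intensity trend and Benjamini-Hochberg adjustment over all DoGs. The fit was run on simulated data in which few DoGs changed and the fractions had no general shift. That setting differs from these data, so it does not check the fit under such a shift. Gene positions came from GENCODE v44, and 3127 of 3139 DoGs had a symbol. Of 13529 listed regions, 3 further duplicate entries of a gene were dropped in favour of the longest. The DoGs described singly were the 10 highest and 10 lowest called changes, the 5 highest FPKM per fraction, the longest regions and most extreme length ratios, the 10 highest 1st-step FPKM among genes listed in the 1st step only, the 5 most positive and 5 most negative differences from control cells, the extremes of each gene list, and genes the study shows. The members, lists and rules were chosen with earlier results of these data known. From the lists of protein-coding families, 30 antisense or divergent transcripts that carry a family's symbol were removed after the symbols had been seen. Alternatives were a pseudocount of 0.01 or 1, only DoGs with mean FPKM from 0.1 up, centring, a replicate block, fewer libraries, no trend, the adjusted p alone, other sets of DoGs or region lengths, and each replicate left out. Results for some loci are not reported here.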

Additional observations from a re-analysis of the deposited data

Results flagged for a closer look

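The difference between the 2nd-against-1st-step changes of stressed and control cells, tested in limma, was positive at 2288 DoGs and negative at 132. The same DoGs were tested as in the report, most of them listed in stressed 2nd-step libraries and many near 0 in control cells, and the groups of 2 libraries were too small for a search for outlying libraries.

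The most positive differences were those of H4C4, RAB3A, ADAMTSL4-AS2, USP11 and LGALS4. The region of the histone gene H4C4 had FPKM of 4.10 and 3.12 in the 1st step and 0.03 and 0.03 in the 2nd step of control cells, against 4.17 and 3.90 and 4.39 and 4.48 in stressed cells, a difference of 4.96 ± 0.14 on the log2 scale. That region reaches the histone genes H1-2, H1-6 and H2BC4 on the same strand, and reads that match several near-identical histone copies were not kept, so the value is uncertain. RAB3A differed by 4.52, USP11 by 4.39 and LGALS4 by 4.25, with control values of at most 0.06 in both fractions. ADAMTSL4-AS2, an antisense transcript, had 0.33 and 0.23 against 0.05 and 0.05 in control cells and 0.56 and 0.45 against 5.12 and 4.92 in stressed cells, a difference of 4.42.

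The most negative differences were those of HCCS-DT, AGAP9, NEIL3, BMS1P1 and ZFP14. HCCS-DT, a divergent transcript, had 0.06 and 0.04 against 1.55 and 1.64 in control cells and 0.04 and 0.04 against 0.01 and 0.01 in stressed cells, a difference of -3.85 ± 0.21. NEIL3, a DNA glycosylase gene, had 1.23 and 1.47 against 1.61 and 1.71 in control cells and 0.94 and 0.87 against 0.06 and 0.09 in stressed cells, a difference of -2.81. ZFP14 had 3.25 and 3.08 against 2.88 and 2.84 in control cells and differed by -2.66. AGAP9 differed by -2.93 and BMS1P1 by -2.71, and both belong to duplicated families on chromosome 10 whose values lack the reads that match more than 1 copy, since only uniquely mapped reads were kept.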

How the results depend on the processing

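A pseudocount of 0.01 moved the median log2 fold change to 2.55 for the SERIPH steps, 2.01 for the difference from control cells and 0.62 for the difference from hiAGPC against conventional. With a pseudocount of 1 these medians were 0.68, 0.63 and 0.25, and the calls fell to 575 higher and 30 lower, 512 and 12, and 2 and 3. Centring left medians of 0.0091, 0.0053 and 0.0019, with 211 higher and 639 lower, 291 and 703, and 7 and 112. The adjusted p alone gave 179 lower, 250 lower, and 1925 higher and 110 lower.

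DoGs reproducible in either fraction gave a median of 2.22 and 41 lower, those reproducible in both 1.76, with 159 higher and 6 lower, and those reaching no other gene on the same strand 1.91, with 1456 higher and 47 lower, where fewer DoGs were tested. Leaving out 1 library gave medians of 1.96 to 2.02, 2459 to 2498 higher and 93 to 105 lower for the SERIPH steps, 1.74 to 1.77, 2265 to 2305 and 128 to 145 for the difference from control cells, and 0.50 to 0.58, 152 to 337 and 48 to 55 for the difference from hiAGPC, where a lone library was assumed to vary like the other groups.

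The ratio of genes per library was 16.02 for regions of at least 20 kb, 56.2 for at least 50 kb, and 6.12 to 6.96 without either replicate. Listing in either replicate gave 464 genes in the 1st step, 372 in both and 92 in the 1st step only, and regions of at least 20 kb 71 and 63. Without either replicate the 2nd step held 2387 to 2449 genes, the 1st step 343 to 400 and both 269 to 309. The median length ratio was 2.0 without regions reaching another gene, a choice that favours short 2nd-step regions, and 4.5 without either replicate.

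After centring, the numbers called higher and lower were 8 and 9 for ribosomal proteins, 2 and 7 for translation factors, 2 and 14 for mitochondrial genes, 1 and 10 for histones, 3 and 22 for zinc fingers, 4 and 7 for solute carriers, 8 and 13 for ubiquitin genes, 10 and 3 for splicing factors, 0 and 1 for 3′ processing, 1 and 7 for RNA polymerase II, 1 and 3 for chromatin, 1 and 5 for DNA repair, 5 and 11 for trafficking, 0 and 8 for chaperones, 1 and 3 for osmotic and immediate early genes, 1 and 0 for paraspeckle proteins, 11 and 19 for antisense, 2 and 4 for divergent, 1 and 2 for small RNA hosts and 1 and 2 for nuclear lncRNAs. List medians relative to all DoGs were unaffected by construction. Centring lowers every DoG's change by the same shift, so the 6 of the 77 DoGs named whose change lay between 0 and that shift became negative by construction, at -1.85 for H4C4, -1.52 for CYTOR, -0.64 for ENSG00000170846, -0.90 for ZRANB1, -0.69 for SMC1A and -0.070 for TMEM38B.

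The labels give the fractions the same replicate numbers, and the deviations of same-numbered libraries had a correlation of 0.023 over DoGs. In SERIPH the 2nd step is taken from the interphase that the 1st step of a lysate leaves, so the protocol implies pairs of libraries. The labels do not state that equal numbers mark 1 lysate. With 2 replicates of each fraction, the correlation cannot decide it. The main fit and the permutation test treated the libraries as unpaired. The fit with a replicate block called 2489 DoGs higher and 93 lower for the SERIPH steps (median 1.99), 2287 and 132 for the difference from control cells (1.76) and 182 and 48 for the difference from hiAGPC (0.54), so it hardly moved the counts. The causes of these movements were not tested, other than where fewer DoGs or libraries entered. FPKM is rounded to 0.01, which limits the precision of low values, and what depth limits could not be measured.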

Other observations

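Of the 3139 DoGs with FPKM, 445 were listed by none of the 4 stressed SERIPH libraries, and 126 of these (28.3%) were called higher and 34 (7.64%) lower in the 2nd step, against 79.3% and 2.96% of all DoGs. No FPKM was given for 203 genes that the 4 libraries listed. CYTOR, a regulatory RNA, was listed by none and had the lowest change of its list, with 0.04 and 0.05 in the 1st step and 0.09 and 0.11 in the 2nd step.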
